A study of Mus musculus with 6 samples.

Results

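Chemokines are small secreted or membrane-bound proteins that guide leukocytes along concentration gradients, and their receptors are G protein-coupled receptors on the responding cells. In the liver, endothelial, stellate and Kupffer cells and hepatocytes are known sources of the ligands, while the receptors sit mainly on resident and recruited immune cells. The genes described here are those whose names follow the Ccl, Cxcl, Cx3cl and Xcl pattern for ligands or the Ccr, Cxcr, Cx3cr and Xcr pattern for receptors and that had at least 10 counts summed over all libraries. They number 37 (23 ligands and 14 receptors) out of 25265 gene names with that many counts, and out of 55367 gene names in the table.

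The counts came from RNA sequencing of whole liver of C57BL/6J mice, with 3 libraries from mice labelled Lmln-/- (here Lmln-KO) and 3 from wild-type mice (WT). Lmln encodes the metalloprotease invadolysin. The mice were 46 weeks old in every library but Lmln-KO replicate 3, which came from a mouse 39 weeks old. The labels name neither a treatment nor the way the allele was made, and they do not give sex. They number the replicates without saying that each is a separate animal, so p-values measure the spread between these libraries.

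Lmln had 4, 12 and 2 counts in the Lmln-KO libraries, against 79, 80 and 39 counts in the WT libraries. Counts per library summed to between 20957895 and 22494696 in Lmln-KO and between 17388360 and 18272045 in WT. Levels are given as CPM, the usual depth-scaled read count, with edgeR's TMM library scaling. The 5 hepatocyte markers were detected and summed to between 58330 and 71915 CPM in Lmln-KO and between 73516 and 91698 CPM in WT. Xist was high in Lmln-KO replicate 3 and in WT replicates 2 and 3, and Y-linked genes were high in Lmln-KO replicates 1 and 2 and in WT replicate 1. This split, which the labels do not give, separated the libraries on the first principal component (58.9% of the variance), so members are also given within each set.

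The rule's patterns matched 58 gene names, and 21 of them stayed below 10 counts. Of those 21, 7 had no count in any library, among them Ccl20, the ligand of CCR6, and Ccl1, the ligand of CCR8. Cxcl5 and Ccl22 lay just inside the minimum, with 11 counts each. Ccr4 and Ccl3 lay just outside it, with 9 counts each. Ccr4, a receptor of helper and regulatory T cells, had 0 counts in every Lmln-KO library and 3 counts in each WT library.

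Of the 37 genes, 28 had enough counts to be tested and 9 did not. The filter asked for about 0.51 CPM in at least 3 libraries. By that mark 17 genes passed in both groups, 6 passed through the WT libraries alone (Cxcr4, Cxcr3, Cx3cr1, Ccl2, Ccl5 and Ccl28), Ccl24 passed through the Lmln-KO libraries alone, and 4 passed only through libraries of both groups together. A gene that passed through the WT libraries alone had at least 1 Lmln-KO library below the mark, so counts over the tested genes are described here and support nothing. In 15 of the 37 genes the mean was below 1 CPM in both groups, where a library holds few reads.

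None of the 28 tested genes passed the test between Lmln-KO and WT after adjustment over all genes. The edgeR quasi-likelihood test with Benjamini-Hochberg adjustment called 0 of them, and it called 0 of 18703 genes overall (0%). DESeq2 called 0 of the 24 it gave an adjusted p, against 0.139% of all genes, and limma-voom called 0, against 0% of all genes. At an unadjusted edgeR p under 0.05, 1 tested gene was higher in Lmln-KO (Cxcl14), against 1.52% of all genes. At the same mark 5 were lower (Ccl5, Ccl28, Cxcr4, Cxcr3 and Ccr9), which is 17.9% of those tested, against 3.14% of all genes. In either direction that is 6 of 28, against 4.66% of all genes. DESeq2 had 1 higher and 6 lower at an unadjusted p under 0.05, against 1.35% and 2.74% of all genes, and limma-voom had 1 higher and 4 lower, against 1.48% and 2.96%. Of the 5 lower in edgeR, all but Ccr9 entered the test through the WT libraries alone.

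Over all 37 genes, which no filter on the groups had sorted, the mean CPM was lower in Lmln-KO for 29 (78.4%), against 52.7% of the 25265 gene names with as many counts. The Lmln-KO libraries lay wholly below the WT libraries for 7 of the 37 (18.9%), against 6.12% of gene names. They lay wholly above for 1 (2.7%), against 4.34%. Among the 28 tested genes the median log2 fold change was -0.22, beside -0.0038 over all genes tested; 19 lay below 0 and 9 above, against 50.6% and 49.4% of all genes. Their groups did not overlap for 6 on the lower side and 1 on the upper, 7 in all, against 5.73%, 4.61% and 10.3% of all genes tested. Leaving out WT replicate 1 moved the median to -0.38, and leaving out Lmln-KO replicate 3, the younger mouse, moved it to -0.36. It was -0.21 among the Y-linked libraries and -0.19 among the Xist libraries, each computed as a difference of mean log2(CPM + 0.5). With a term for the library set by Xist and Y-linked genes, the median over 30 members was -0.15 in edgeR and -0.16 in DESeq2. With a minimum count of 30, which left 14 members, the median was -0.09, and with no filter, over all 37, it was -0.32.

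**Figure D1:**
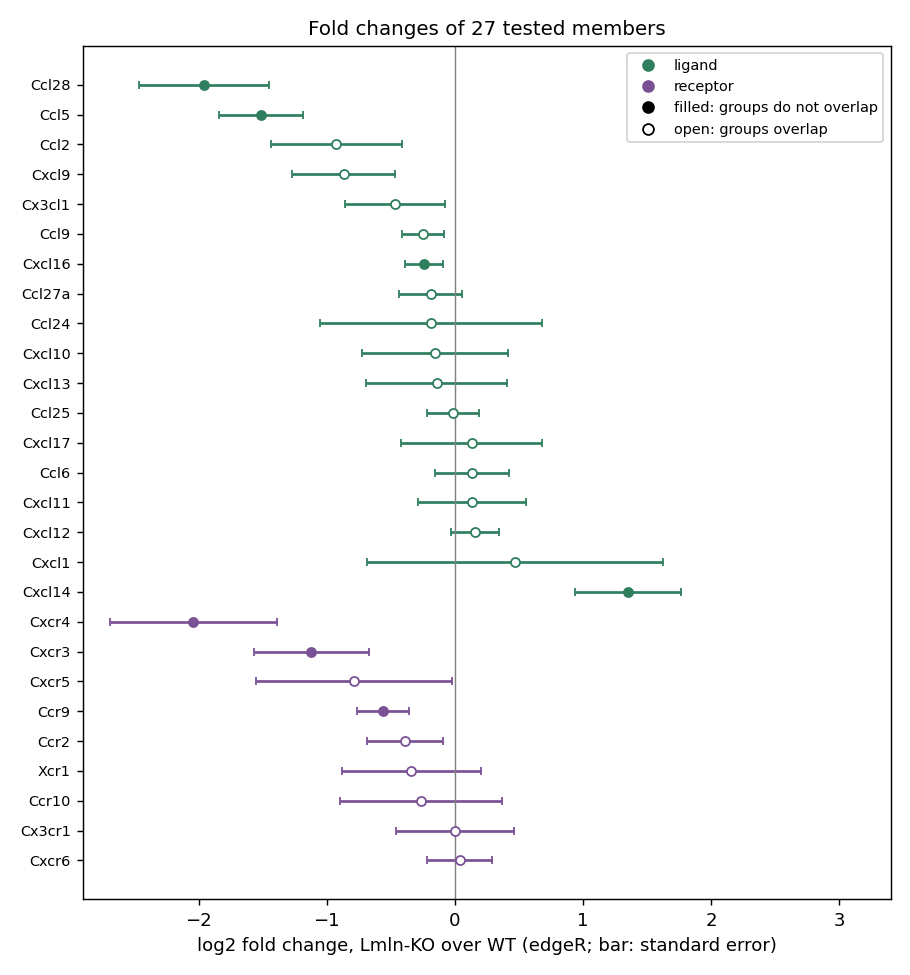
Log2 fold change of Lmln-KO over WT for 27 tested genes, ligands above and receptors below, with bars of 1 standard error from edgeR. Filled points mark the 7 genes whose libraries do not overlap between the groups, and only Cxcl14 among them lies to the right of 0.

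Promoters are shown for ligands with large differences that the RefSeq promoter table holds, and for a neighbouring ligand pair that shares a motif. The table, on GRCm38.p6, matched 25 of the 37 genes, and the 250 bases before each start site were searched on both strands. GGGANTTTC, part of the NF-kappaB motif, occurred in 0.9% of all 32851 promoters and in 4 of the genes here, Cxcl1, Cxcl2, Cxcl9 and Cxcr2. GAAANNGAA, part of the interferon-response motif, occurred in 7.1% of promoters and also in 4 genes, Cxcl9, Cxcl10, Cxcl14 and Ccr2. TTCNNNGAA, a form of the STAT motif, occurred in 7.0% and in Cxcl14 and Ccr6, while TATAAA occurred in 12.4% and in 7 of the genes. A match is a run of letters and no measure of binding. Capitals in the sequences mark these matches; Ccl28 held none of the 4 motifs in this window.
Cxcl14 (chr13:56296552-56296801, minus strand): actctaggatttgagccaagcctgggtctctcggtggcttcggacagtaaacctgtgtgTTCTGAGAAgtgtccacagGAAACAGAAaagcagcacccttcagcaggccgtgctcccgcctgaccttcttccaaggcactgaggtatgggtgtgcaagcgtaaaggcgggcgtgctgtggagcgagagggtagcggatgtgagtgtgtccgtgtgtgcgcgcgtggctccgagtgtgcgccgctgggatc
Ccl28 (chr13:119623569-119623818, plus strand): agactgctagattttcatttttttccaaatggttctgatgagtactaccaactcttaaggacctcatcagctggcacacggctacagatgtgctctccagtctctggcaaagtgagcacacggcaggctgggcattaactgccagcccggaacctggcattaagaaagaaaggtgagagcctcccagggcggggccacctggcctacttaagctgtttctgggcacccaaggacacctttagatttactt
Cxcl1 (chr5:90890995-90891244, plus strand): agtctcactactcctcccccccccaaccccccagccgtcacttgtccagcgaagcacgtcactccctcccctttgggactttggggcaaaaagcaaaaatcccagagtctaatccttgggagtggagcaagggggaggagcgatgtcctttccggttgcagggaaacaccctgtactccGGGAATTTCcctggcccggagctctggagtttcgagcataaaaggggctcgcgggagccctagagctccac
Cxcl2 (chr5:90903649-90903898, plus strand): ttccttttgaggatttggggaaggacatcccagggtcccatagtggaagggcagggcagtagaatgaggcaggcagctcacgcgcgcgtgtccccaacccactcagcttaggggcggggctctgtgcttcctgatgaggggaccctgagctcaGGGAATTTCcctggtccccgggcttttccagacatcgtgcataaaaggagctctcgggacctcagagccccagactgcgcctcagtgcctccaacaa
The capitals of Cxcl1 begin at position -71 and those of Cxcl2 at position -97 from the start site. In Cxcl14 they begin at -191 and -172.

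Levels between genes are compared as CPM per kilobase of exon. Cxcl12, the CXCR4 ligand that holds haematopoietic and B-lineage cells in their niches, was the most abundant member, at 51.0 CPM per kilobase on average in Lmln-KO and 45.8 in WT. It made up between 54.7% and 62.4% of the summed ligand level per kilobase in the Lmln-KO libraries and between 50.8% and 57.0% in the WT libraries. Ccl9, a rodent CC chemokine that binds CCR1, came next, at 13.7 CPM per kilobase in Lmln-KO and 16.3 in WT. Cxcl1, Cxcl16, Ccl6, Cxcl9, Ccl25 and Cxcr6 followed, with means over both groups between 4.17 and 1.87 CPM per kilobase. The highest receptor on average was Cxcr6, which marks liver-resident natural killer T cells and other lymphocytes. It held between 33.3% and 39.6% of the summed receptor level per kilobase in Lmln-KO and between 14.9% and 32.9% in WT. WT replicates 1 and 2, at 31.4% and 32.9%, lay close to the Lmln-KO range. The 14.9% was WT replicate 3, which had the highest receptor sum (9.23 CPM per kilobase). There Cxcr4 was the higher receptor, at 5.01 CPM against 2.65 CPM for Cxcr6. The log2 fold change of Cxcr6 itself was 0.04.

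**Figure D2:**
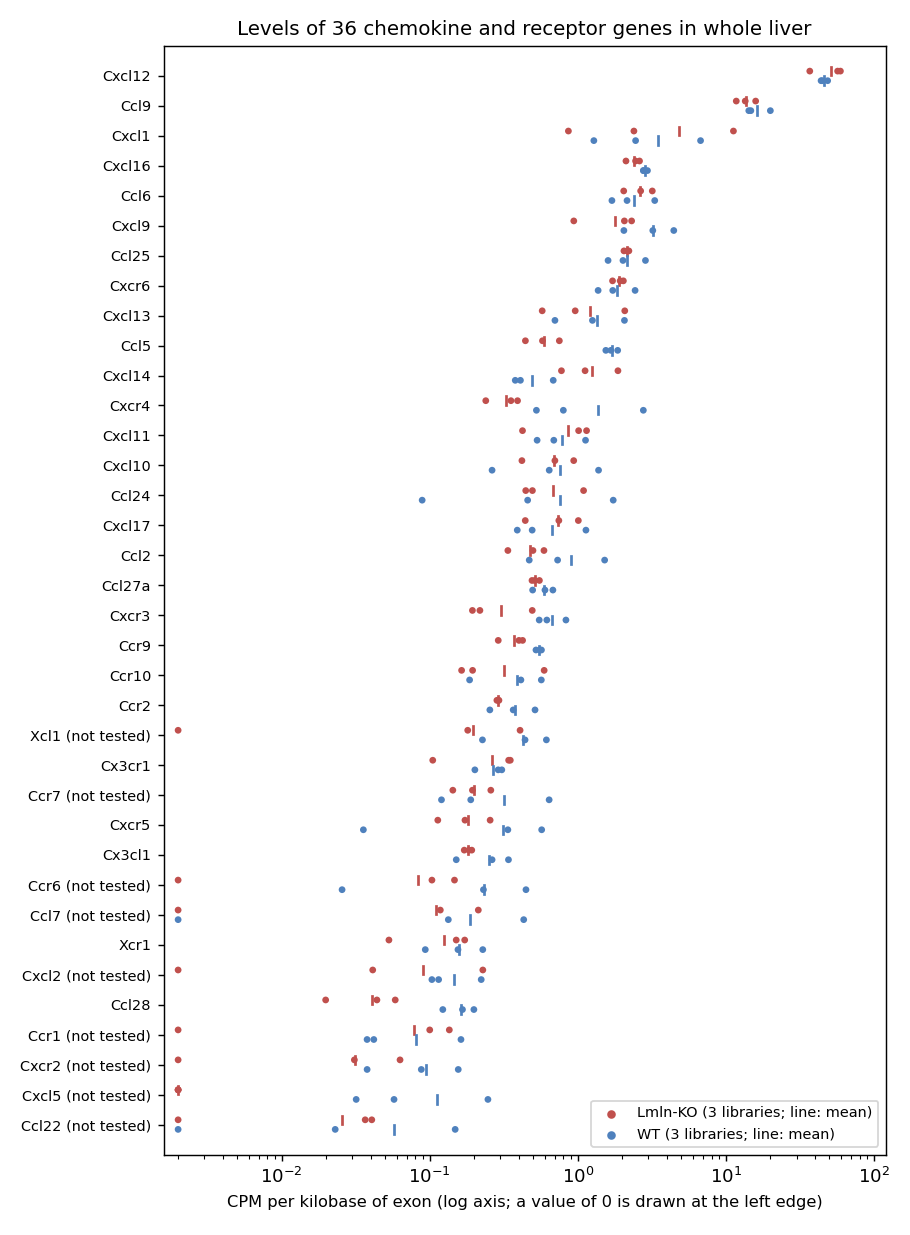
CPM per kilobase of exon on a log axis for 36 genes, ordered by mean level, with 1 point per library and a line at each group's mean. Cxcl12 and Ccl9 stand above the rest, and the 9 untested genes lie in the lower part, several with libraries at 0.

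Among the homeostatic ligands, Cxcl12 (chr6:117168535-117181367) had 485, 301 and 465 CPM in Lmln-KO, against 359, 398 and 365 CPM in WT. The groups overlapped, and Lmln-KO replicate 2 was the lowest of all 6 libraries. Its log2 fold change was 0.16 (SE 0.188; edgeR adjusted p 0.936). Leaving out Lmln-KO replicate 2 gave 0.34 (unadjusted edgeR p 0.0434, adjusted p 0.9998), leaving out Lmln-KO replicate 1 gave 0.04, and leaving out Lmln-KO replicate 3 gave 0.08. Cxcl13, which draws B cells to follicles through CXCR5, had 1.10, 0.661 and 2.39 CPM in Lmln-KO, against 2.38, 1.44 and 0.806 CPM in WT. Its groups overlapped over nearly their whole range.

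The epithelial and mucosal ligands held both the member that was higher in every Lmln-KO library and a member that was lower in every one. Cxcl14 (chr13:56288643-56296551), a homeostatic chemokine of epithelia, had 3.41, 1.42 and 2.05 CPM in Lmln-KO, against 1.25, 0.749 and 0.691 CPM in WT. The lowest Lmln-KO library lay just above the highest WT library, and Lmln-KO replicate 1 was the highest. Lmln-KO averaged 2.29 ± 1.02 CPM and WT 0.896 ± 0.306 CPM (SD over 3 libraries each). The log2 fold change was 1.35 (SE 0.415), with an unadjusted edgeR p of 0.0114 and an adjusted p of 0.933. Over the alternatives its adjusted p ran between 0.529 and 0.9999, and its log2 fold change was 0.96 without Lmln-KO replicate 1.

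Ccl28 (chr13:119623819-119654359), a ligand of CCR10 and CCR3 made by mucosal epithelia, had 0.0961, 0.283 and 0.213 CPM in Lmln-KO, against 0.594, 0.963 and 0.806 CPM in WT. Those values rest on 2, 6 and 5 counts in Lmln-KO and on 10, 18 and 14 counts in WT. The groups did not overlap, and the log2 fold change was -1.96 (SE 0.506), with an unadjusted edgeR p of 0.00467 and an adjusted p of 0.933. Ccl25, the ligand of CCR9 in thymus and small intestine, had 16.5, 16.1 and 15.3 CPM in Lmln-KO, against 21.3, 15.0 and 11.9 CPM in WT. The Lmln-KO libraries lay inside the WT range, and the log2 fold change was -0.01 (SE 0.201). Ccl27a, the skin ligand of CCR10, and Cxcl17, a mucosal chemokine, had overlapping groups and log2 fold changes of -0.19 and 0.13.

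Ccl5 had the smallest p of all members. It encodes a ligand of CCR1 that activated T cells and natural killer cells are known to make. Ccl5 (chr11:83525778-83530518) had 0.721, 0.425 and 0.554 CPM in Lmln-KO, against 1.48, 1.60 and 1.79 CPM in WT, on 15, 9 and 13 counts in Lmln-KO and 25, 30 and 31 counts in WT. Every Lmln-KO library lay below every WT library, and Lmln-KO averaged 0.567 ± 0.148 CPM against 1.62 ± 0.151 CPM for WT (SD over 3 libraries each). The log2 fold change was -1.51 (SE 0.329), with an unadjusted edgeR p of 0.00174 and an adjusted p of 0.933. The adjusted p ran between 0.275, with DESeq2, and 0.9999 over the alternatives. The log2 difference of Ccl5 was -0.90 among the Y-linked libraries and -1.06 among the Xist libraries, with signs that the separate groups fix. Both use log2(CPM + 0.5), which shrinks differences at such low levels, so their sizes are not comparable with the edgeR value.

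Markers of T and natural killer cells, the known sources of Ccl5, were low in both groups. The 10 markers summed to 3.03, 4.06 and 2.56 CPM in Lmln-KO, against 3.86, 5.78 and 8.35 CPM in WT, and only Cd4 had enough counts to be tested. Cd4 had 1.10, 2.17 and 0.256 CPM in Lmln-KO, against 1.07, 0.481 and 1.44 CPM in WT, so it weighed heavily in some of these sums. None was at 0 in every library, though Cd3d had no count in Lmln-KO replicate 1. The part of this marker difference in the Ccl5 result was not tested. In whole tissue, fewer cells of a type and less RNA per cell cannot be told apart.

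The other tested ligands for monocytes and macrophages had smaller log2 fold changes than Ccl5, a difference between genes that was not tested. Ccl9 had 35.8, 41.1 and 48.4 CPM in Lmln-KO, against 44.9, 43.5 and 60.8 CPM in WT. The groups overlapped, and the log2 fold change of -0.25 (SE 0.165) was -0.08 without WT replicate 3. Ccl6, a rodent CCR1 ligand next to Ccl9, had 5.72, 4.77 and 3.67 CPM in Lmln-KO, against 3.86, 5.94 and 3.05 CPM in WT. Its groups overlapped, with a log2 fold change of 0.14 (SE 0.288). Ccl2, the main CCR2 ligand for monocytes, had 0.673, 0.567 and 0.384 CPM in Lmln-KO, against 0.831, 0.535 and 1.73 CPM in WT. WT replicate 3 was the highest, and the log2 fold change of -0.92 (SE 0.511) was -0.33 without it. Ccl5, Ccl9 and Ccl6 lie within 67.3 kb on chromosome 11.

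Cxcl9, Cxcl10 and Cxcl11 are interferon-inducible ligands of CXCR3 and lie within 44.1 kb on chromosome 5. C57BL/6 mice are known to make no functional CXCL11 protein, although the transcript is present. Cxcl9 had 6.97, 2.83 and 6.22 CPM in Lmln-KO, against 6.18, 9.68 and 13.4 CPM in WT. Lmln-KO replicate 1 lay above WT replicate 1, so the groups overlapped. The log2 fold change was -0.87 (SE 0.399), with an unadjusted edgeR p of 0.0666 and an adjusted p of 0.933; it was -0.57 without WT replicate 3. For Cxcl10 the log2 fold change was -0.15 (SE 0.570) and for Cxcl11 it was 0.14 (SE 0.422); both had overlapping groups.

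The neutrophil-attracting ligands Cxcl1, Cxcl2 and Cxcl5, which act through CXCR2, lie within 146.6 kb on chromosome 5. Cxcl1 had the highest biological coefficient of variation of the tested members in edgeR, 0.905, with 21.1, 4.49 and 1.62 CPM in Lmln-KO, against 12.6, 2.41 and 4.61 CPM in WT. In each group replicate 1 was far above the others, and the groups overlapped. Its log2 fold change of 0.47 (SE 1.15) became -1.10 when Lmln-KO replicate 1 was left out and 1.37 when WT replicate 1 was left out. Cxcl5 had 0 counts in every Lmln-KO library and 1, 2 and 8 counts in WT. If counts were independent, a count of 0 would allow up to 3, worth between 0.128 and 0.144 CPM in the Lmln-KO libraries. Both mates of a read pair counted separately, so the limit may be higher. Cxcl2 had 0, 10 and 2 counts in Lmln-KO, against 4, 4 and 8 counts in WT. The 6 neutrophil markers summed to between 0.614 and 1.92 CPM in Lmln-KO and between 1.55 and 1.66 CPM in WT.

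The ligands made as membrane proteins were both measured lower on average. Cxcl16, the CXCR6 ligand of sinusoidal endothelium and macrophages, had 6.39, 7.89 and 7.42 CPM in Lmln-KO, against 8.37, 8.40 and 8.93 CPM in WT. The groups did not overlap, but the gap between them was small, and the log2 fold change was -0.24 (SE 0.147; edgeR adjusted p 0.933). The exons of Cxcl16 overlap those of Zmynd15 over 552 bases, and counting gave no strand option, so reads there cannot be assigned to either gene by strand. Cx3cl1, which binds CX3CR1 on monocytes, had overlapping groups and a log2 fold change of -0.46 (SE 0.389). Ccl24, an eosinophil ligand of CCR3, had 0.576, 1.42 and 0.640 CPM in Lmln-KO, against 0.594, 2.25 and 0.115 CPM in WT, with WT holding both the highest and the lowest library. Xcl1, the XCR1 ligand of T and natural killer cells, and Ccl22, a CCR4 ligand of dendritic cells, were among the untested genes. Xcl1 had 0, 2 and 5 counts in Lmln-KO, against 2, 6 and 4 in WT, and Ccl22 had 0, 2 and 2 counts in Lmln-KO, against 0, 1 and 6 in WT. Ccl7, a monocyte ligand of CCR2, was untested too, with 0, 2 and 4 counts in Lmln-KO, against 0, 2 and 6 in WT. The groups of all 3 overlapped.

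**Figure D3:**
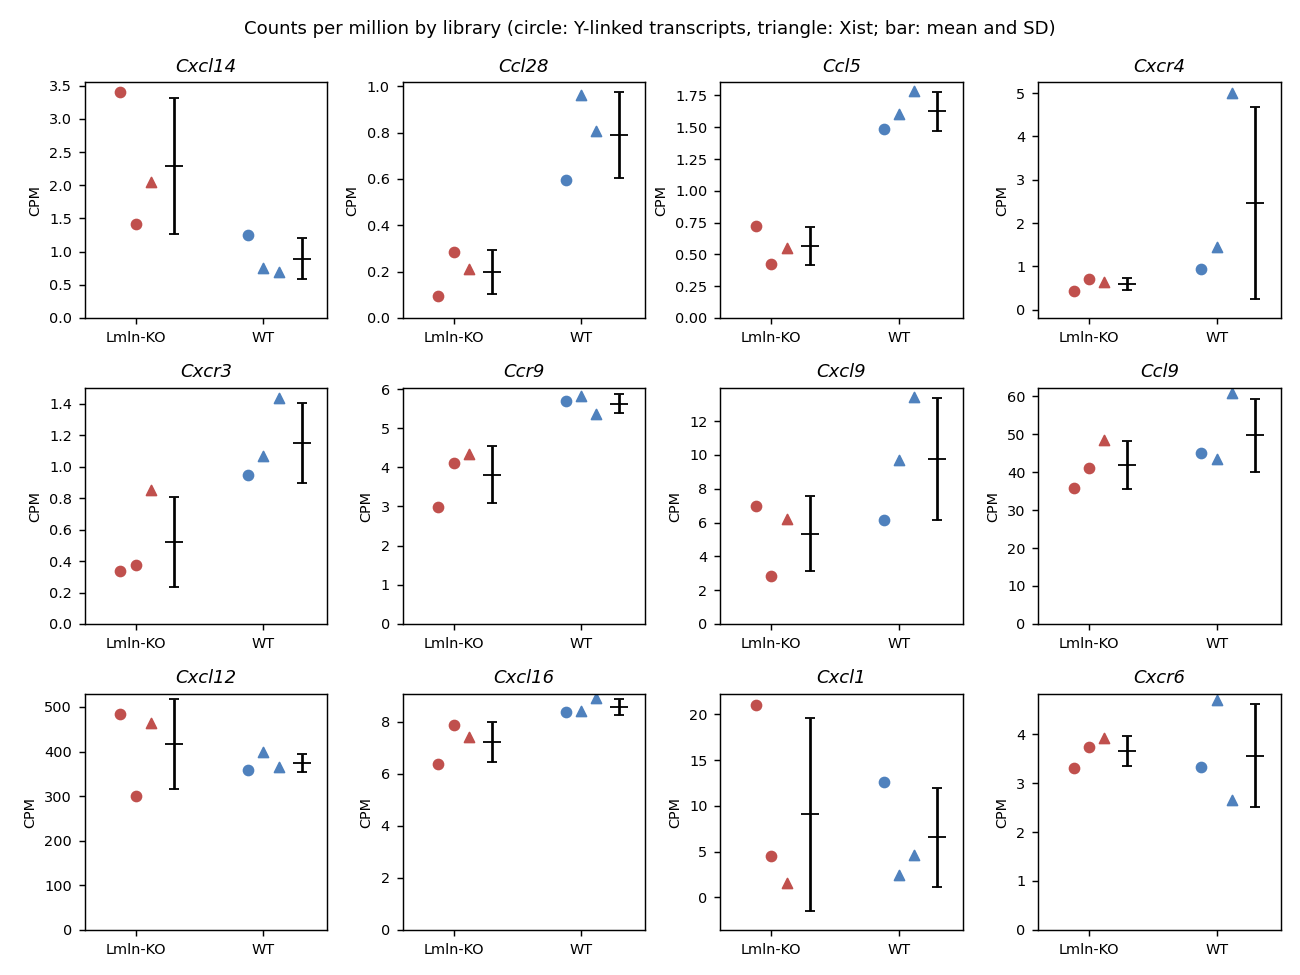
CPM by library for 12 members, with Lmln-KO left of WT and bars of mean and SD over 3 libraries; circles are libraries with Y-linked transcripts and triangles those with Xist. The groups of Cxcl14, Ccl28, Ccl5, Cxcr4, Cxcr3, Ccr9 and Cxcl16 do not overlap, while those of Cxcl9, Ccl9, Cxcl12, Cxcl1 and Cxcr6 do.

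Of the receptors of lymphocytes and dendritic cells, 7 of 9 were tested, and 6 of these had log2 fold changes below 0, beside 50.6% of all genes. Their median log2 fold change was -0.56, and -0.13 with a term for the library set by Xist and Y-linked genes (the sex-marker term). Cxcr4 (chr1:128588199-128592293), the CXCL12 receptor on most leukocytes, had 0.432, 0.709 and 0.640 CPM in Lmln-KO, against 0.950, 1.44 and 5.01 CPM in WT. The groups did not overlap, and WT replicate 3 stood far above the others. The log2 fold change was -2.04 (SE 0.652), with an unadjusted edgeR p of 0.0154 and an adjusted p of 0.933, and it was -1.01 without WT replicate 3. Its ligand Cxcl12 had the log2 fold change of 0.16 given above.

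Cxcr3, the receptor of activated T cells for CXCL9 and CXCL10, had 0.336, 0.378 and 0.853 CPM in Lmln-KO, against 0.950, 1.07 and 1.44 CPM in WT. The groups did not overlap, with Lmln-KO replicate 3 close to WT replicate 1. The log2 fold change was -1.12 (SE 0.452), with an unadjusted edgeR p of 0.0379 and an adjusted p of 0.933. Ccr9, the CCL25 receptor of gut-homing lymphocytes and plasmacytoid dendritic cells, had 2.98, 4.11 and 4.35 CPM in Lmln-KO, against 5.70, 5.83 and 5.36 CPM in WT. Its groups did not overlap, and Lmln-KO averaged 3.81 ± 0.732 CPM against 5.63 ± 0.246 CPM for WT (SD over 3 libraries each). The log2 fold change was -0.56 (SE 0.200), with an unadjusted edgeR p of 0.0229 and an adjusted p of 0.933. Exons of Ccr9 overlap those of Gm17021 over 1932 bases, so reads there cannot be assigned by strand.

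Cxcr6 had overlapping groups, at 3.31, 3.73 and 3.92 CPM in Lmln-KO, against 3.33, 4.71 and 2.65 CPM in WT, with a log2 fold change of 0.04 (SE 0.252). Cxcr5, the CXCL13 receptor of B cells, had 0.576, 0.378 and 0.853 CPM in Lmln-KO, against 0.119, 1.12 and 1.90 CPM in WT. WT held both its lowest and its highest library, and its log2 fold change of -0.79 (SE 0.765) was 0.01 with the sex-marker term. Xcr1, the XCL1 receptor of cross-presenting dendritic cells, had overlapping groups and a log2 fold change of -0.34 (SE 0.541). Ccr10, the CCL27 and CCL28 receptor, likewise overlapped, at -0.26 (SE 0.629) on the log2 scale. Ccr7, which brings T and dendritic cells to lymphoid tissue, had 8, 6 and 12 counts in Lmln-KO, against 4, 7 and 22 in WT. Ccr6, the CCL20 receptor, had 5, 0 and 8 counts in Lmln-KO, against 1, 10 and 18 in WT. Both were untested, and in both WT replicate 1 was the lowest WT library and WT replicate 3 the highest.

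Marker lists of B and plasma cells and of dendritic cells showed the same ordering of WT libraries, as did the T and natural killer cell list above. The 7 B and plasma cell markers summed to 38.6, 20.6 and 30.8 CPM in Lmln-KO, against 38.7, 232 and 401 CPM in WT. Of the 6 tested, all 6 were lower at an unadjusted edgeR p under 0.05, against 3.14% of all genes, and none passed adjustment. WT replicate 1 lay at the level of Lmln-KO replicate 1, and WT replicates 2 and 3 lay far above. The 6 dendritic cell markers, which include the member Xcr1, summed to 22.3, 18.9 and 18.6 CPM in Lmln-KO, against 21.0, 36.4 and 50.1 CPM in WT. The part of these marker differences in the receptor values was not tested.

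**Figure D4:**
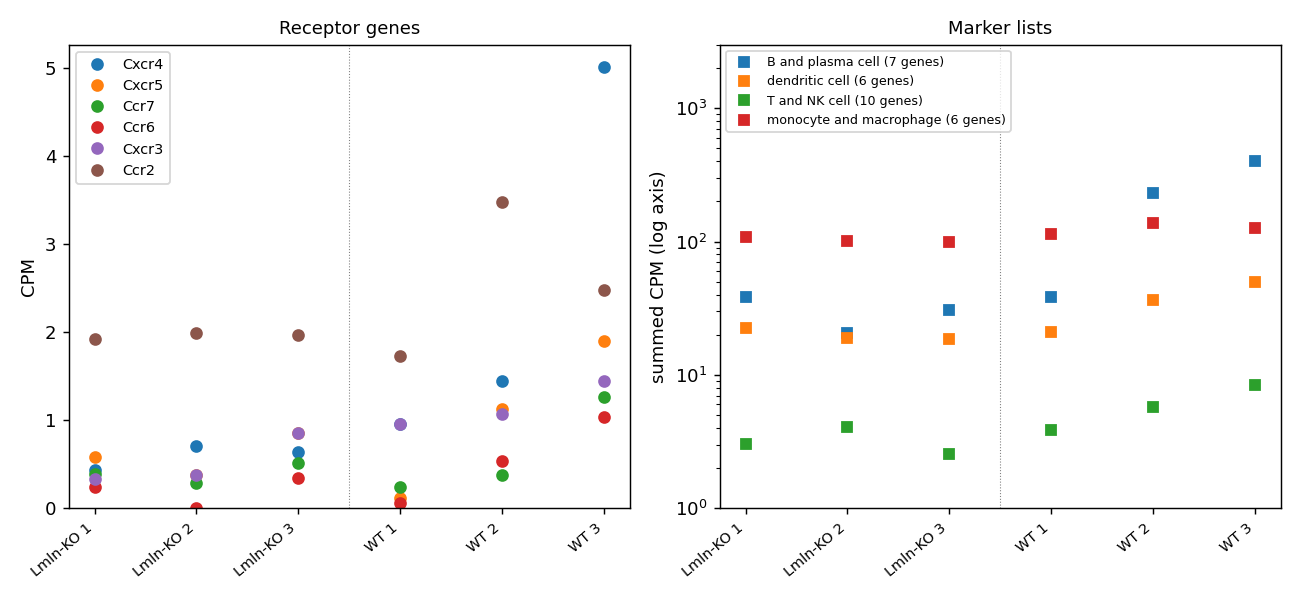
Left, CPM of 6 receptor genes in each library; right, summed CPM of 4 marker lists on a log axis, with Lmln-KO libraries left of the WT libraries. WT replicates 2 and 3 hold the highest B and plasma cell sums (232 and 401 CPM), and WT replicate 3 the highest Cxcr4 (5.01 CPM).

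Among the receptors of myeloid cells, both tested genes given here had overlapping groups. Ccr2, the CCL2 receptor of inflammatory monocytes, had 1.92, 1.98 and 1.96 CPM in Lmln-KO, against 1.72, 3.48 and 2.48 CPM in WT, with a log2 fold change of -0.39 (SE 0.294). Cx3cr1, the fractalkine receptor, had a log2 fold change of 0.00 (SE 0.462). Ccr1 and Cxcr2 were untested: Ccr1 had 8, 6 and 0 counts in Lmln-KO and 2, 2 and 8 in WT, and Cxcr2 had 4, 2 and 0 counts in Lmln-KO and 8, 5 and 2 in WT. The 6 monocyte and macrophage markers, which include Ccr2, summed to between 99.0 and 107 CPM in Lmln-KO and between 113 and 137 CPM in WT. Of these markers, only Lyz2 had groups that did not overlap. Lyz2 had 36.1, 34.4 and 37.4 CPM in Lmln-KO, against 51.0, 47.9 and 49.9 CPM in WT. The sums of the 6 Kupffer cell markers overlapped, at between 170 and 204 CPM in Lmln-KO and between 184 and 253 CPM in WT.

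The 10 tested members with the smallest p, chosen on the same libraries, are also given within each library set. Where the groups do not overlap, as for 7 of these 10, the sign within a set is fixed by that, so it is a description and no support. With Y-linked transcripts, Lmln-KO replicates 1 and 2 were set against WT replicate 1; with Xist, Lmln-KO replicate 3 was set against WT replicates 2 and 3. Each set thus has 1 library on a side and no test. The differences are of mean log2(CPM + 0.5), which shrinks them at low CPM, so their sizes are not comparable with edgeR fold changes. Cxcl14 had log2 differences of 0.65 with Y-linked transcripts and 1.06 with Xist. For Cxcr4 the Y-linked libraries gave -0.45 and the Xist libraries -1.52, and for Cxcr3 the Y-linked libraries gave -0.76 and the Xist libraries -0.37. With the sex-marker term in edgeR, 0 of 30 members passed adjustment, against 0.0051% of all genes, and 1 was higher and 4 lower at an unadjusted p under 0.05, against 1.73% and 2.73% of all genes. With that term in DESeq2, 0 members passed adjustment, against 0.187% of all genes, and 1 was higher and 3 lower at an unadjusted p under 0.05, against 1.11% and 1.83%.

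**Figure D5:**
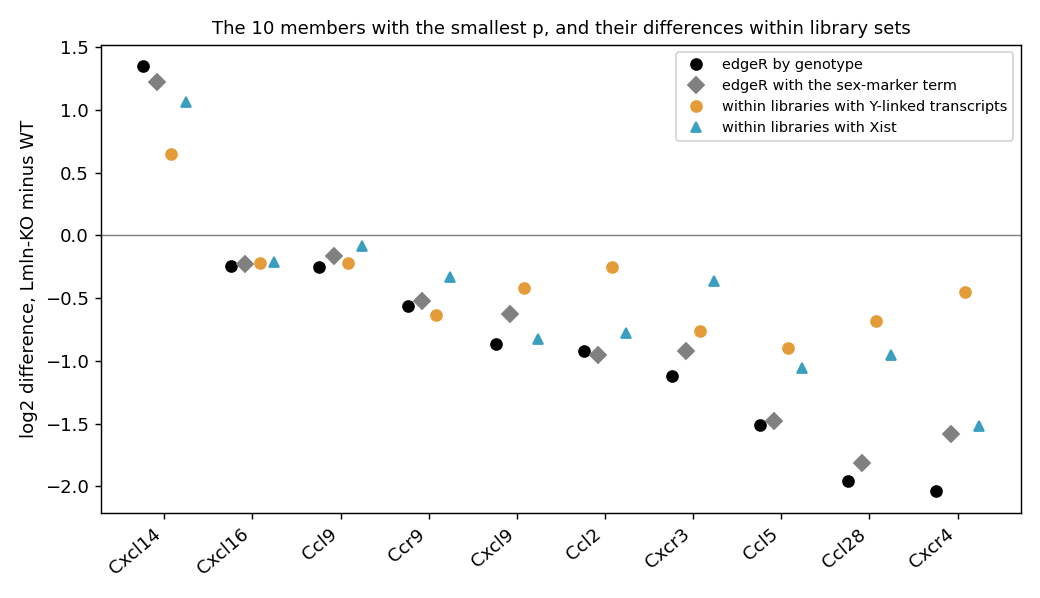
Log2 difference, Lmln-KO minus WT, for the 10 members with the smallest p. Values are from edgeR by genotype, from edgeR with the sex-marker term and within each library set. The within-set values are differences of mean log2(CPM + 0.5). That offset shrinks differences at low CPM, so their sizes are not comparable with the edgeR values. The sizes differ between sets, as for Cxcr4 (-0.45 and -1.52); for the 7 genes without overlap the signs within sets are fixed by the choice of genes.

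The signalling genes that chemokine receptors share were measured beside them. Of 21 such genes, all tested, 19 had log2 fold changes below 0 and 2 above, against 50.6% of all genes below 0. The median was -0.32, beside -0.0038 over all genes, and none passed adjustment in edgeR. The 2 above 0 were the G protein genes Gnai2 (0.01) and Gnai3 (0.05). Together with Gnb1 (-0.01) they had the highest mean CPM of the list, so its most abundant genes were near 0. The 3 with an unadjusted p under 0.05 were Rgs1, Rac2 and Rgs19, all lower in Lmln-KO, against 3.14% of all genes. Rgs1, a brake on G protein signalling that is abundant in activated B and T cells, had 0.673, 2.08 and 2.09 CPM in Lmln-KO, against 3.44, 5.72 and 7.49 CPM in WT, and its groups did not overlap. Rac2, the haematopoietic Rac GTPase, had a log2 fold change of -0.77.

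A list of 24 genes covers the pathways that induce chemokines, and it includes the inhibitors Nfkbia and Tnfaip3. Of the 24, 19 were tested, 14 with log2 fold changes below 0 and 5 above, against 50.6% of all genes below 0. Lower values therefore do not stand for less induction in every gene. The median was -0.19, beside -0.0038 over all genes. None passed adjustment in edgeR, 3 were lower at an unadjusted p under 0.05, against 3.14% of all genes, and Il17a had no count. Il1b, an inflammatory cytokine that induces Cxcl1 and Ccl2, had 2.21, 4.01 and 4.90 CPM in Lmln-KO, against 11.8, 9.95 and 8.64 CPM in WT, with no overlap and a log2 fold change of -1.44. Tnfaip3, an NF-kappaB target and inhibitor, had a log2 fold change of -0.95, and the TNF receptor gene Tnfrsf1b had -0.53. On the other side, the interleukin-1 receptor gene Il1r1 had 0.58 and the lymphotoxin receptor gene Ltbr had 0.25, named after their values were seen. Among the 5 atypical receptors, which bind chemokines without G protein signalling, 4 had log2 fold changes below 0 and none had an unadjusted p under 0.05. Ackr4, the most abundant of them in CPM, had between 18.3 and 33.7 CPM in Lmln-KO and between 21.8 and 27.5 CPM in WT.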

How the data were processed

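The authors deposited a table of raw, whole-number read counts by gene name, made with featureCounts 2.0.1 on the Ensembl release 102 annotation of GRCm38, per the file headers; the submitters' processing notes name Subread 2.0.2 and edgeR 3.36.0. That command set no option for read pairs or strand, so both mates counted separately. The aligner was not given in the sources used here. Libraries were made with ribosomal RNA depletion, per the labels' protocols. No 2 libraries agreed within sampling noise (lowest chi-square per degree of freedom 8.24).

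From the counts, 18703 genes passing filterByExpr (minimum count 10) were fitted by genotype over all 6 libraries with edgeR 4.0.16 in R 4.3.3 (TMM scaling, robust quasi-likelihood test, Benjamini-Hochberg adjustment at 0.05). DESeq2 1.42.0 and limma-voom (limma 3.58.1) were alternatives. SE is the absolute log2 fold change over the square root of F. On simulated counts for this comparison (18209 genes, 200 changed), edgeR recovered 28% of 2-fold and 87% of 4-fold changes, and called 14 unchanged genes. DESeq2 recovered 43% of 2-fold and 95% of 4-fold changes, and called 44 unchanged genes. The changed genes were drawn from those with a mean of at least 1 CPM, so these shares do not cover members below that level. Named members have an unadjusted p under 0.05 or are among the 10 smallest, do not overlap at a mean of at least 1 CPM, or are among the 8 highest per kilobase; others are examples. The members and lists were chosen with earlier results of these data known. Within-set values were added after seeing the data. Intervals and limits from counts cover counting error only and take counts as independent, which mates counted separately are not. Values of 1 member are not reported here; it stays in the counts over members and is left out of the figures.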

Additional observations from a re-analysis of the deposited data

How the results depend on the processing

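Under all 15 refits, edgeR, DESeq2 or limma-voom called 0 of the chemokine and receptor genes. Over all genes edgeR called 0; DESeq2 called 24, the fit without a filter 3, the sex-marker term 1 and that term with DESeq2 31, while leaving out 1 library gave 0 to 3 (3 without WT replicate 1). The median log2 fold change of tested members, -0.22, lay between -0.38 (without WT replicate 1) and -0.15 with 1 library left out. It was -0.086 at a minimum count of 30 (14 members) and -0.32 without a filter (37 members), so it was smaller among the better-counted members. Whether replicate numbers pair the libraries was not settled. Deviations of same-numbered libraries correlated at 0.503, -0.343 and 0.425. These correlations were positive within a library set and negative across sets, so they cannot decide pairing. For example, Lmln-KO replicate 2 with WT replicate 1 gave 0.508, and Lmln-KO replicate 3 with WT replicate 1 gave -0.718. The replicate block called 1 gene among all, with a member median of -0.25. Of the alternative values of named members, 232 kept their direction and 17 reversed, all 17 in Ccl25, Ccl6, Cxcl1 or Cxcr6. Where the groups do not overlap, signs within sets and with 1 library left out are fixed by that. Many named members were also chosen for a small p in these same libraries. The count of 232 is therefore a description and no support. Ccl25 (-0.01) reversed to 0.029 with limma-voom, 0.0024 without a filter, 0.025 with the block and 0.18 within the Xist libraries, and ran between -0.19 and 0.24 with 1 library left out. Ccl6 (0.14) reversed to -0.20 within the Xist libraries and ran between -0.057 and 0.45 with 1 left out. Cxcl1 (0.47) reversed to -0.43 with the sex-marker term, -0.53 with that term in DESeq2, -0.34 within the Y-linked libraries and -0.86 within the Xist libraries, and ran between -1.10 (Lmln-KO replicate 1 left out) and 1.37 (WT replicate 1 left out). Cxcr6 (0.04) ran between -0.14 and 0.29 with 1 left out. The cause was not tested. Depth limits the 15 members below 1 CPM in both groups.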

Other observations

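The median biological coefficient of variation in edgeR was 0.327 over the tested members and 0.218 over all genes tested, and 15 of the 28 tested lay above the trend for their level and 13 below it. Exons of 9 members overlap those of another gene, and reads in the shared bases could not be assigned by strand. Gm2673, which shares 1582 exon bases with Cxcl11, had 0 counts in every library. How reads in shared bases entered the counts was not tested.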
